A study of Arabidopsis thaliana with 16 samples.

Results

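Broad H3K4me3 domains that were present in guard cells of both genotypes of an Arabidopsis thaliana series were described. H3K4me3 is the trimethyl mark on lysine 4 of histone H3. A domain was a wild-type (WT) H3K4me3 peak on chromosomes 1 to 5 that was at least 2000 bp long and had at least 80% of its length covered by H3K4me3 peaks of the second genotype. Of the 16036 WT peaks, 1439 reached that length, and 1256 of these met both conditions. They made up 7.83% of the WT peaks and, with 3.12 of 19.9 Mb, 15.7% of the bp that WT peaks covered. The domains were chosen by their measured lengths and coverage, so both are given as descriptions, and so are the enrichment values of the same H3K4me3 lists.

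The second genotype, fama-1 with the transgene FAMAp:FAMA-LGK, expresses FAMA-LGK from the promoter of FAMA and is named FAMA-LGK below. FAMA is a bHLH transcription factor needed for guard cell differentiation, and FAMA-LGK cells are the reprogrammed guard cells of the series. Seedlings of both were raised to 12 days post germination in a cycle of 16 h light and 8 h dark (22 °C). Protoplasts were made from the aerial tissue, and guard cells were sorted from them by fluorescence. Chromatin immunoprecipitation (ChIP) with antibodies to H3K4me3 and to H3K27me3 gave 16 libraries. For every combination of mark and genotype there were 2 ChIP libraries and 2 inputs, given together as 1 peak list. There is therefore no replicate error and no test between genotypes, and a difference in depth and a difference in the mark cannot be told apart. All intervals below are exact (Clopper-Pearson) 95% intervals of shares. They cover counting error only, and neighbouring domains and genes are not independent.

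H3K4me3 is laid down by COMPASS-type methyltransferases and is found mainly over the first part of transcribed genes. Most H3K4me3 peaks in plants are short and sit just downstream of a transcription start. H3K27me3, the mark of Polycomb repressive complex 2, spreads over whole silent genes and usually excludes H3K4me3.

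Most kept domains were only a little longer than the threshold. Their median length was 2301 bp, and 1107 of them were shorter than 3000 bp. The other 149 reached up to 7741 bp. The share of WT peaks covered to at least 80% by FAMA-LGK peaks was 53.3% below 500 bp, 89.9% from 500 to under 1000 bp, 95.4% from 1000 to under 1500 bp and 90.8% from 1500 to under 2000 bp. It was 88.6% from 2000 to under 3000 bp and 78.8% (interval 72.3 to 84.4%) from 3000 bp. The share thus peaked at intermediate length and was lower again among the longest peaks. The domains lay on all 5 chromosomes, at 7.22 to 8.13% of the WT peaks of each. The median gap between neighbouring domains was 43441 bp.

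Coverage by FAMA-LGK peaks had a median of 98.4%, and 368 domains were covered completely. A single FAMA-LGK peak overlapped 1164 of the domains, 2 peaks overlapped 91, and 1 domain was met by more. The summed length of the FAMA-LGK peaks over a domain minus the WT length had a median of 11 bp. It was positive for 660 domains and negative for 592, and lay within 200 bp for 863. A gain of over 500 bp was listed for 73 domains and a loss of over 500 bp for 15. The 80% rule limits losses and not gains, so these 2 counts cannot be compared. FAMA-LGK peaks were counted at full length, so a gain can include a neighbouring WT peak. The sign of the median itself depends on the limits, since it was -57 bp with a width of at least 3000 bp and -9 bp with coverage of at least 50%. Across the 1256 domains, WT length and FAMA-LGK length had a Spearman rho of 0.786, given as a description because the rule used both.

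**Figure D1:**
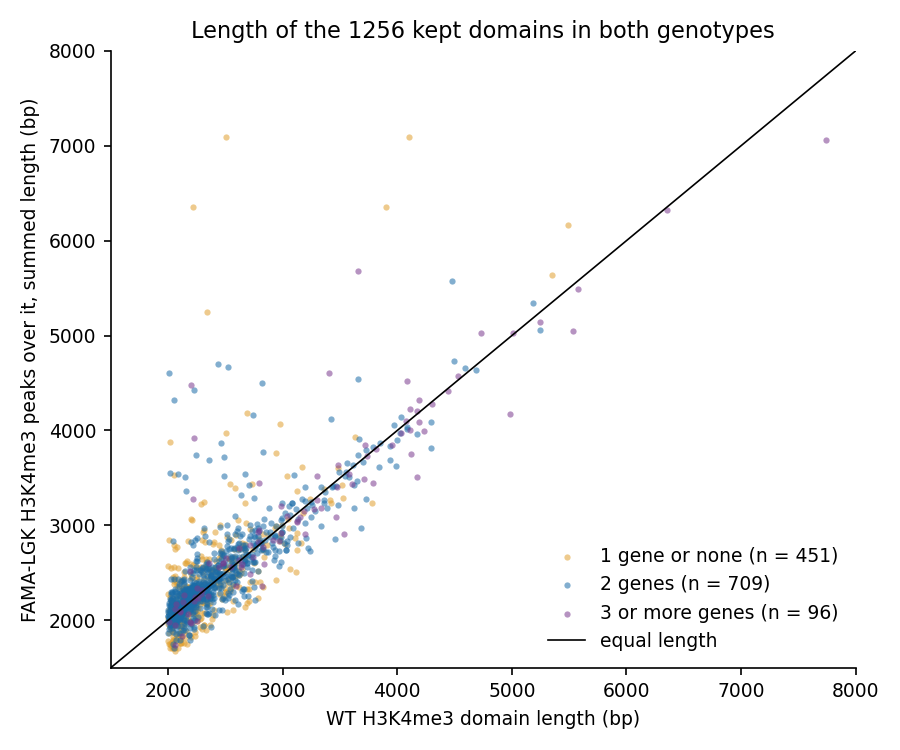
Length of each of the 1256 kept domains in WT (x axis, bp) against the summed length of the FAMA-LGK peaks over it (y axis, bp), coloured by the number of protein-coding genes covered. Most points lie near the line of equal length, and the points far above it at the left are domains that end inside a much longer FAMA-LGK peak.

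At the thresholds, AT5G40140 and LHCB3 (2000 bp each) and AT3G22980 (2001 bp) were just long enough, and MED9, CPK30 and AT3G60961 were 1 bp too short. AT1G03590 (80.1% covered), RVE8 (80.2%) and AT3G01790 (80.2%) were just inside the coverage limit. HDG1 (79.9%), ABCG19 (79.9%) and AT2G21090, which missed the limit by less than either, fell just outside. The peaks on both sides of each limit hardly differ, so membership near the limits rests on a few bp.

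The widest domains were mostly stretches of several genes. The widest lay on chromosome 2 (TAIR10, 12998100 to 13005840). It covered all of RPT2, a phototropin signalling protein of phototropism, all of NET4B, an actin-binding protein, and all of AT2G30505. Its WT length was 7741 bp, and it met 1 FAMA-LGK peak of 7064 bp. The next, on chromosome 4 (18554504 to 18560853), covered 5 genes, among them AT4G40030 and AT4G40040, which both encode histone H3.3. WT peaks covered 6350 bp and FAMA-LGK peaks 6320 bp. Because the 2 H3.3 genes are close copies, reads from them may have been placed on either.

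The domain of ERF1-2 on chromosome 1 (4392732 to 4398312, 5581 bp) also covered GAPA-2, a subunit of chloroplast glyceraldehyde-3-phosphate dehydrogenase, and ATAN11, a WD40 protein. The domain of CDSP32, a chloroplast thioredoxin induced by drought, spanned SMT3, a sterol methyltransferase, and AT1G76070 on chromosome 1 (28546362 to 28551895, 5534 bp). Its FAMA-LGK cover was 2 peaks with 5046 bp in all. AFB4, an auxin receptor F-box protein (5248 bp, chromosome 4, 12611042 to 12616289), and AT5G08780 with the NAC factor gene ATAF2 (5013 bp, chromosome 5, 2855452 to 2860464) each shared a domain of 4 genes.

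Beside the histone H3.3 domain with its 5 genes, no kept domain held more than 4, and 10 held 4. One of these, on chromosome 1 (20802236 to 20804787), held PSAG, a photosystem I subunit, with AT1G55673, AT1G55675 and AT1G55680 on 2552 bp, and FAMA-LGK peaks had 2563 bp there. RFI2, a RING finger protein of light signalling, and GSTF8, a glutathione transferase, shared a domain of 4236 bp on chromosome 2 (19553338 to 19557573) with AT2G47710 and AT2G47720. AT3G09490 and 3 neighbours had 4077 bp in WT, against 4104 bp of FAMA-LGK peaks. The domain with LHCB6 is described with the photosynthesis genes.

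Few of the widest domains rested on a single gene. PEN3, an ABC transporter of pathogen defence, filled its domain almost alone (chromosome 1, 22034323 to 22039669). Its length was 5347 bp (WT) and 5642 bp (FAMA-LGK), and it covered 92.0% of the gene. By the authors' fold enrichment, PEN3 stood at percentile 99.1 of the WT list and at percentile 76.0 of the FAMA-LGK list. HSP101, a chaperone that dissolves protein aggregates after heat, lay with AT1G74300 (chromosome 1, 27935114 to 27940355, 5242 bp). HSP90.1, a heat-inducible chaperone, lay with MEF1 (chromosome 5, 21350162 to 21355344, 5183 bp).

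A domain without any protein-coding gene of the gene table stood out by strength. It lay on chromosome 1 (29804194 to 29809686) over AT1G79245, which the table annotates as a transcribed pseudogene. It was 5493 bp long, and the FAMA-LGK peak over it 6164 bp. Its −log10 q of 357 was the highest of the WT H3K4me3 list, and in the FAMA-LGK list its peak stood at percentile 99.8. The other 4 domains of highest −log10 q were AT4G38250 with 3 further genes (356), AT1G07310 with RPL4, a ribosomal protein gene (350), AT3G03680 (341), and TPLATE, a subunit of an endocytic adaptor complex, with BET10 (341). AT3G03680 stood at percentile 59.0 for −log10 q in FAMA-LGK, and the other 4 stood at percentile 97.0 or higher. In all, 8 domains touched no protein-coding gene by 150 bp. They held pseudogenes or non-coding RNA genes, such as GUT15 on chromosome 2 (7994893 to 7997391, 2499 bp), a gene known for its unstable transcript.

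Enrichment was high in both lists but not extreme. The authors' fold enrichment of ChIP over input had a median of 6.09 over the domains in WT and 5.47 over the matching FAMA-LGK peaks. Their −log10 q values had a median at percentile 81.0 of the WT list and 79.1 of the FAMA-LGK list. In WT, 753 domains (60.0%) were in the top 25% of their list by −log10 q and 29 were in the lowest 25%. In FAMA-LGK these counts were 706 and 44. Length and −log10 q in WT were weakly related across the 1256 domains (Spearman rho 0.171, a description, since a caller can score longer peaks higher).

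Neighbouring genes shared most of the domains. A gene was counted where at least 150 bp of its body lay on the domain. By this measure, 443 domains covered 1 protein-coding gene, 709 covered 2, 96 covered 3 or more, and 8 covered none. The share over 2 or more genes was 64.1% (interval 61.4 to 66.7%). It was 13.1% (12.4 to 13.9%) among 8573 shorter WT peaks of 1000 to under 2000 bp covered to at least 80%, and 32.8% (26.0 to 40.1%) among the 183 broad WT peaks that were not kept. The kept domains thus had the highest share of the 3 sets, with intervals that did not overlap.

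A long region reaches more genes by its length alone, so the count was repeated in a window of equal size at the centre of each region. A window of 1000 bp held 2 or more genes in 558 kept domains (44.4%, interval 41.7 to 47.2%), in 9.80% (9.18 to 10.4%) of the shorter peaks and in 11.5% (7.25 to 17.0%) of the broad peaks that were not kept. With a window of 500 bp the shares were 12.7%, 3.83% and 3.28%, and with 2000 bp they were 61.9%, 31.9% and 29.5%. The order of the kept domains above the other sets held at all 3 sizes. Around the summit, the point of highest signal, the sets were closer. A window of 1000 bp at the WT summit held 2 or more genes in 12.3% of the kept domains, in 8.68% of the shorter peaks and in 7.65% of the broad peaks that were not kept. Over all WT peaks of 1500 to under 2000 bp it did so in 15.0% (interval 13.5 to 16.6%). The kept domains (interval 10.6 to 14.3%) were thus not above the peaks nearest to them in length. The summit itself lay inside a protein-coding gene in 98.2% of the kept domains and of the shorter peaks. In kept domains the share with a gene boundary was thus higher at the middle (44.4%) than at the summit (12.3%). The count of genes depends on the 150 bp asked for, and 19.6% of the kept domains held at least 50% of the body of 2 or more genes.

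In the 709 domains with 2 genes, the median distance between the genes was 110 bp, and in 162 domains their annotated bodies overlapped. Genes that share 1 region have to lie near each other, and the median distance was 31 bp in shorter peaks with 2 genes and 24 bp in broad peaks that were not kept. With the domain cut into 3 equal parts, the boundary lay in the middle part in 84.1% of them, against 55.8% of the 1098 shorter peaks with 2 genes. The WT summit lay a median of 369 bp (quartiles 289 and 518 bp) from the nearer of the 2 facing gene ends, on either side of that end. Both genes were wholly covered in 32 domains, 1 of them in 189, and neither in 488. Among domains with 2 genes, the usual layout was therefore a domain centred between them, over the facing ends of both. The direction of transcription was not used here, so whether the facing ends are starts cannot be told.

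**Figure D2:**
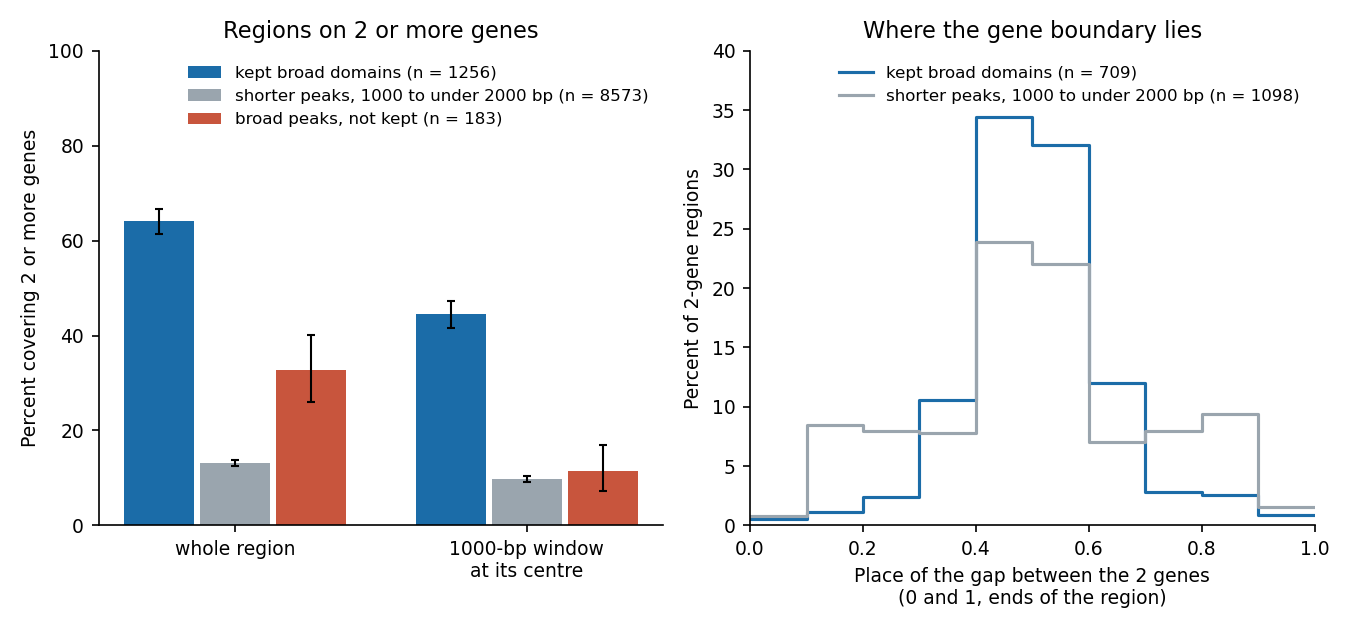
Left, percent of regions that cover 2 or more protein-coding genes, over the whole region and in a 1000-bp window at its centre, with exact 95% intervals, for the kept broad domains, shorter peaks and broad peaks not kept. Right, place of the boundary between the genes along regions with 2 genes (0 and 1 are the ends of the region), as percent of regions in 10 equal bins. Kept domains are highest in both left-hand groups, and their gene boundaries gather at the middle.

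The same counts of kept and not kept broad peaks can be read by number of genes, so what follows is no further result. Of the broad WT peaks, 443 of 565 with 1 gene met the coverage rule (78.4%, interval 74.8 to 81.7%), 709 of 757 with 2 genes did (93.7%, 91.7 to 95.3%), and 96 of 108 with 3 or more did (88.9%, 81.4 to 94.1%). The interval for 2 genes lay above that for 1 gene. Among the kept domains with 1 gene, the gene had a median length of 2879 bp, and a median of 79.8% of it was covered. In 67 of these 443, at least 95% of the gene was covered.

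Summits were mostly in the same place in both genotypes. They lay a median of 58 bp apart and within 200 bp in 1014 domains (80.7%). The shorter peaks had a median of 40 bp and 95.2% within 200 bp. In 1128 domains both summits were in the same gene, and in 103 they were in different genes. The FAMA-LGK summit was that of the peak with the most bp on the domain. At least 2 FAMA-LGK peaks met 65 of the domains with 2 genes and 17 of those with 3 or more. There another peak may be the stronger one, so a move of the highest signal is not shown. Of the domains with 2 genes, 82 of 709 (11.6%) had the WT summit on one gene and the FAMA-LGK summit on a different one. With 3 or more genes it was 20 of 96 (20.8%). These summits lay 546 to 4493 bp apart, and in 100 of the 102 the FAMA-LGK summit lay inside the WT domain.

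Among these, 3 were chosen as examples after their values were seen, for genes with a known role. The largest distance was in the CDSP32 domain (4493 bp), with the WT summit on SMT3 and the FAMA-LGK summit on AT1G76070. In the domain shared by PSBY, a small photosystem II protein, and KCR1, a ketoacyl-CoA reductase of very-long-chain fatty acid synthesis, the summit was on PSBY in WT and on KCR1 in FAMA-LGK (2742 bp apart, chromosome 1, 25391412 to 25395256). In the domain of SPA3, a partner of COP1 in light signalling, it was on SPA3 in WT and on AT3G15356 in FAMA-LGK (2387 bp, chromosome 3, 5171504 to 5175615). The CDSP32 and PSBY domains each met 2 FAMA-LGK peaks, and the SPA3 domain met 1.

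The largest gains in length came from FAMA-LGK peaks that ran on past the WT domain. For CRK10, CRK11 and ABCG40, the gain counts the other WT domain, because the whole FAMA-LGK peak was set against each WT domain alone. CRK10 and CRK11, neighbouring receptor-like kinase genes of the cysteine-rich family, had separate WT domains on chromosome 4 of 2510 bp (12137988 to 12140497) and 4105 bp (12140997 to 12145101). A FAMA-LGK peak of 7095 bp covered both. From the left end of the CRK10 domain this peak ran from 30 to 7125 bp, and the CRK11 domain ended at 7114 bp. ABCG40, a plasma membrane ABC transporter that imports abscisic acid into guard cells, likewise had 2 WT domains on chromosome 1, of 2221 bp (5332091 to 5334311) and 3906 bp (5334476 to 5338381), in 1 FAMA-LGK peak of 6358 bp. These were the 2 FAMA-LGK peaks that held more than 1 kept domain. In WT the first ABCG40 domain was among the weaker ones, at percentile 19.4 of the list by −log10 q, and the FAMA-LGK peak stood at percentile 42.4. ATERDJ3A, a J-protein of the endoplasmic reticulum, had a WT domain of 2337 bp in a FAMA-LGK peak of 5250 bp, and AT2G20930 had 2011 and 4605 bp.

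The largest losses, which the rule limits, were smaller than the largest gains. The domain of AT5G07090, WRKY26 and 2 other genes measured 4981 bp, of which FAMA-LGK peaks had 4172 bp. AT4G17950, an AT-hook protein gene, had 3685 and 2974 bp, and PRP4, a proline-rich cell wall protein, had 3534 and 2905 bp. JAZ1, a repressor of jasmonate signalling, had 4169 and 3509 bp. RPT2, with the widest domain, was the other among the 5 largest losses. All of these except RPT2 met 2 FAMA-LGK peaks, with a gap between them inside the WT domain.

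**Figure D3:**
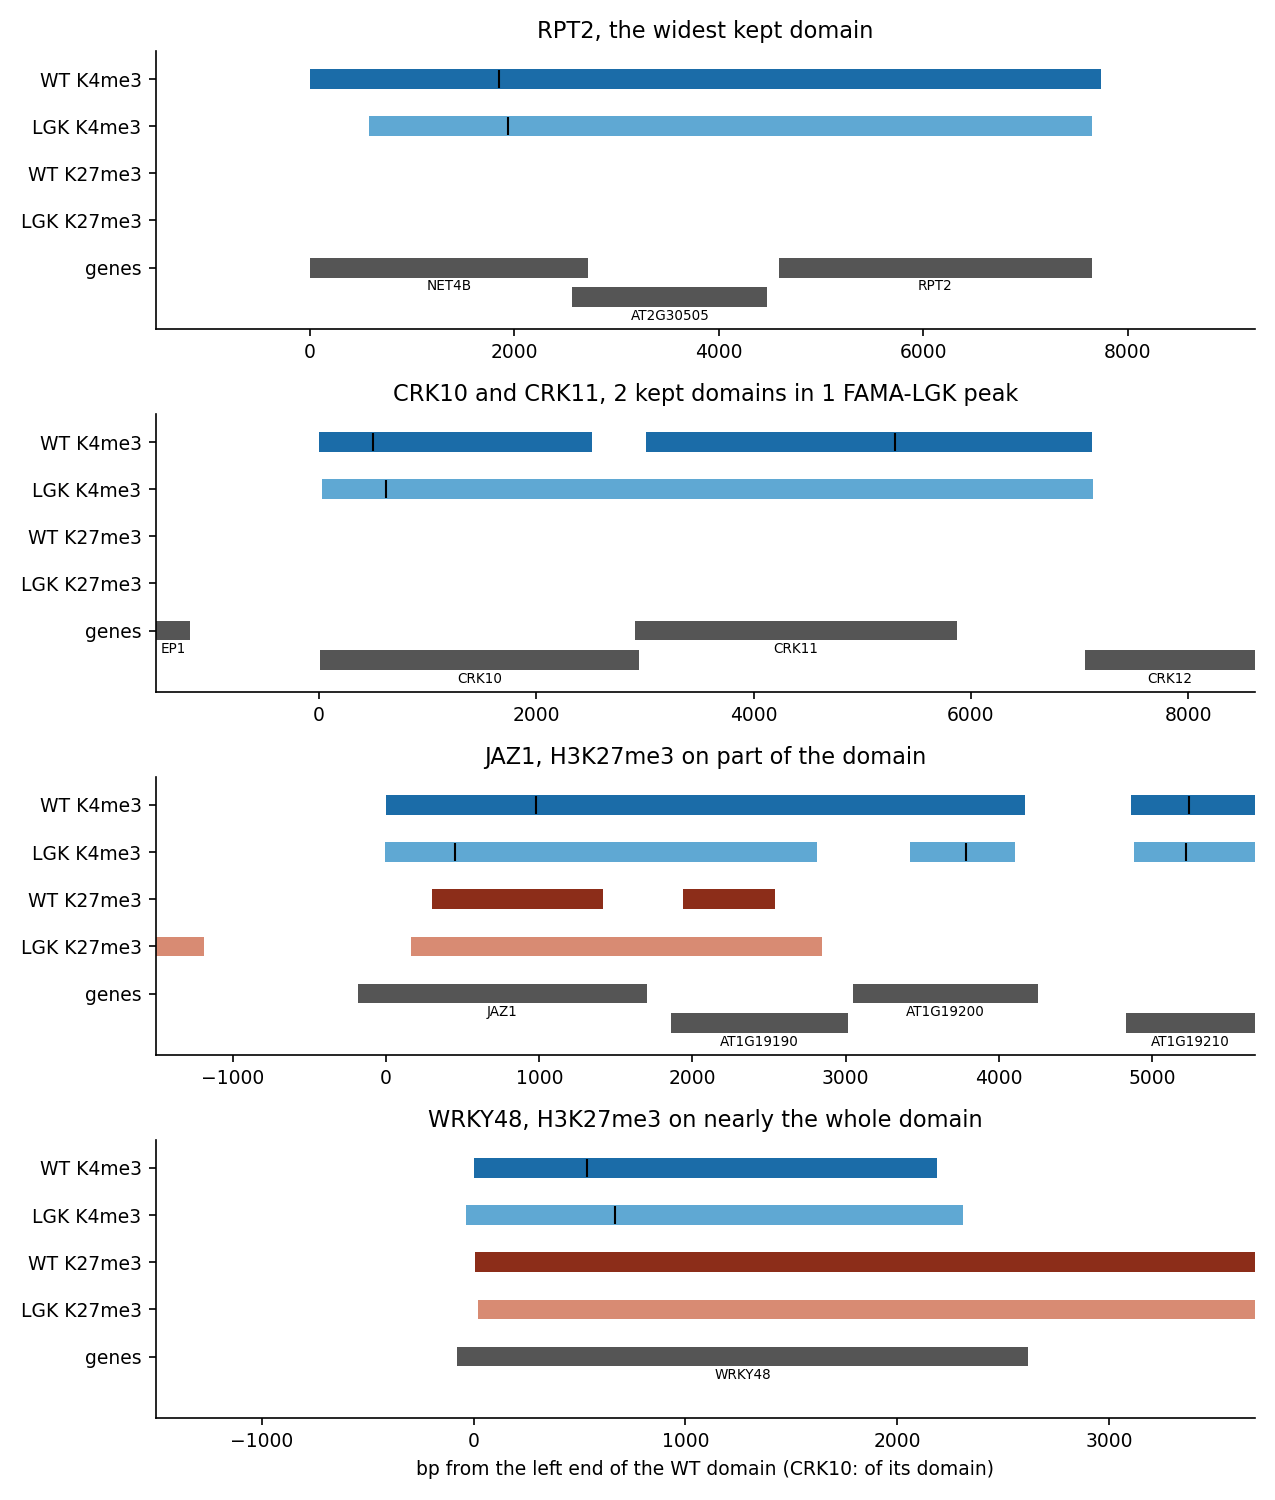
Peaks and protein-coding genes around 4 named domains, on an axis of bp from the left end of the WT domain; bars are H3K4me3 peaks (blue, with the summit as a black line), H3K27me3 peaks (red) and gene bodies (grey), with WT above FAMA-LGK for each mark. RPT2 shows a domain over several genes, CRK10 and CRK11 show 2 WT domains in 1 FAMA-LGK peak, JAZ1 shows a domain with a gap in FAMA-LGK and H3K27me3 over 1 part, and WRKY48 shows both marks over nearly the same stretch.

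H3K27me3, which the rule did not use, was listed on a small share of the kept domains. At least 1 bp was overlapped by a WT H3K27me3 peak in 64 domains (5.10%, interval 3.95 to 6.46%) and by a FAMA-LGK H3K27me3 peak in 61 (4.86%, 3.74 to 6.20%). Of all WT H3K4me3 peaks, 8.29% (7.87 to 8.73%) were overlapped in the WT list and 7.95% (7.54 to 8.38%) in the other. The shorter peaks had 4.11% (3.70 to 4.55%) in WT and 3.73% (3.34 to 4.16%) in FAMA-LGK. The broad peaks that were not kept had 14.2% (9.50 to 20.1%) and 19.7% (14.2 to 26.2%). At this overlap the share among kept domains was below that of the broad peaks that were not kept, and those intervals did not overlap in either genotype. When H3K27me3 had to cover at least 50% of the region, the WT shares were 1.11% (0.611 to 1.86%) of kept domains, 2.25% (1.95 to 2.59%) of shorter peaks and 6.56% (3.43 to 11.2%) of broad peaks that were not kept. The FAMA-LGK shares were 1.51%, 1.89% and 9.84%. The order of kept domains and shorter peaks thus turned with the overlap asked for, in both genotypes. With the stronger 50% of each list by −log10 q, H3K27me3 lay on 1.45% of the kept domains in each genotype. In domains with 1 gene and with 2 genes the WT shares were 4.97% and 4.94%.

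The overlap was usually partial and of similar length in both genotypes. The median length overlapped was 726 bp (WT) and 734 bp (FAMA-LGK), and 14 domains in WT and 19 in FAMA-LGK were covered to at least 50%. Of the 68 pairs of a domain and a WT H3K27me3 peak, 38 had the H3K27me3 peak wholly inside the domain. The H3K4me3 summit lay inside an H3K27me3 peak in 28 of 64 domains in WT and in 32 of 61 in FAMA-LGK. Of the 76 domains with any H3K27me3, 49 had it in both lists, 15 only in the WT list and 12 only in the FAMA-LGK list. Among the 49, the overlapped length differed by a median of 131 bp and by at most 200 bp in 33. The lists come from pools of sorted cells, so both marks on 1 chromosome copy and each mark in different cells cannot be told apart.

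The domains with the most H3K27me3 in both genotypes are named here. AT5G17980 (chromosome 5, 5953855 to 5956833) had a domain of 2979 bp, with 2353 bp overlapped in the WT list and 2222 bp in the other. WRKY48, a WRKY transcription factor gene (chromosome 5, 20090727 to 20092915), had 2185 and 2167 bp of 2189 bp, so nearly the whole domain carried both marks. EXO70H4, an exocyst subunit (chromosome 3, 2923567 to 2925701), had 1870 and 1751 bp of 2135 bp. JAZ1 (chromosome 1, 6621963 to 6626131) differed more, from 1719 bp (WT) to 2683 bp (FAMA-LGK), and it was also among the domains that lost the most H3K4me3 length. PUB23, a ubiquitin ligase of immune and drought signalling (1339 and 1436 bp), the lectin receptor kinase gene LECRKA4.1 (1634 and 1737 bp) and AT3G01830 beside LYK2, a LysM receptor-like gene (1597 and 1820 bp), were close in both. BLH4, a homeodomain gene, had 1515 and 2088 bp, AT5G56240 had 1766 and 1635 bp, and AT5G35735 had 1657 and 1318 bp.

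The 4 domains with H3K27me3 in 1 genotype that are named here were chosen after their values were seen. NIA2, the main nitrate reductase gene of leaves (chromosome 1, 14158371 to 14161431), had none of it listed in WT (0 bp) and 2093 bp in FAMA-LGK. Its H3K4me3 fold stood at percentile 98.0 of the WT list and at percentile 35.2 of the FAMA-LGK list. NIT4, a nitrilase of cyanide detoxification (chromosome 5, 7379194 to 7381996), had 0 and 1848 bp, and its H3K4me3 fold stood at percentiles 88.5 and 39.1. In both, the H3K4me3 domain was still covered to at least 80% while its rank within the list was lower in FAMA-LGK. EBF2, an F-box protein of ethylene signalling, had 0 and 978 bp. PCFS4, an mRNA 3′ end processing factor, had the opposite, 1548 and 0 bp.

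**Figure D4:**
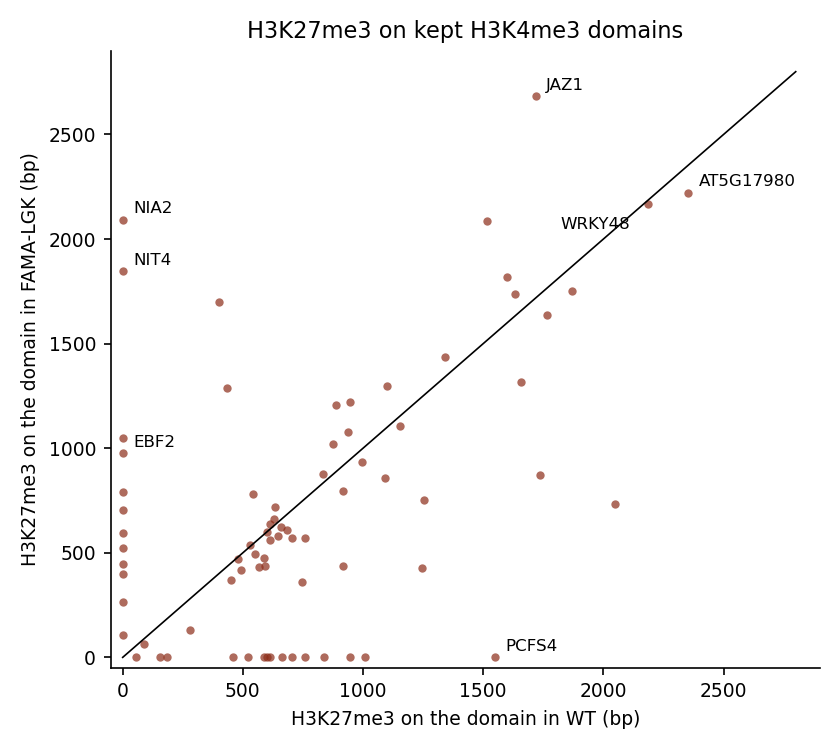
H3K27me3 on the 76 kept domains with any, as bp of the domain overlapped in WT (x axis) and in FAMA-LGK (y axis), with the line of equal length. Most of the 49 domains marked in both genotypes lie near the line, and NIA2 and NIT4 are the highest of the 12 points at 0 bp in WT.

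The domains covered at least 150 bp of 2150 protein-coding genes, which is 7.83% of the 27444 in the table and 12.6% of the 17082 genes with at least 150 bp on any WT H3K4me3 peak. The counts of 15 gene lists are read beside these shares. The lists were chosen with earlier results of these data known, so they are descriptions. Over all lists, 52 of 305 genes (17.0%) lay on a kept domain.

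Polyubiquitin and heat shock genes had the highest share, 9 of 14 (64.3%, interval 35.1 to 87.2%). They were the polyubiquitin genes UBQ3, UBQ10, UBQ11 and UBQ14 and the chaperone genes HSP90.1, HSP90.2, HSC70-1, HSC70-3 and HSP70-4. UBQ10 (chromosome 4, 2718013 to 2721471) had 3459 bp (WT) and 2854 bp (FAMA-LGK), UBQ14 had 2608 and 2168 bp, UBQ11 had 2492 and 2258 bp, and UBQ3 had 2109 and 2002 bp. The HSP70-4 domain had 2832 and 2907 bp, and that of HSC70-1, a constitutive cytosolic HSP70, had 2577 and 2566 bp. All 4 polyubiquitin domains thus had less FAMA-LGK than WT length. Among the chaperone domains, that of HSC70-1 changed by -11 bp, and the other 4 had 63 to 161 bp more. There is no replicate error to set these against. Some of these genes have close copies in sequence, so their reads may have been placed on the wrong copy, which was not tested.

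Vacuolar proton pump genes followed with 4 of 9 (44.4%, interval 13.7 to 78.8%). They were AVP1, the proton-pumping pyrophosphatase, and the V-ATPase subunit genes VHA-A, VHA-B1 and DET3. Starting from the FAMA-LGK list, 2 of the 9 lay on kept domains, and 2 did when a domain had to cover 50% of a gene. AVP1 (chromosome 1, 5398710 to 5401250) had a domain of 2541 bp in a FAMA-LGK peak of 3438 bp. On the domain of VHA-B1 the summit was on the neighbour AT1G76020 in WT and on VHA-B1 in FAMA-LGK.

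Of the wounding, touch and stress genes, 10 of 34 lay on kept domains (29.4%, interval 15.1 to 47.5%). The transcription factor genes among them were WRKY33, WRKY40, ZAT10 and ERF109, and the zinc finger protein genes were SZF1 and SZF2. JAZ1 and LOX3, a lipoxygenase of jasmonate synthesis, belong to jasmonate signalling. TCH2, a calmodulin-like protein, responds to touch, and NHL3 to pathogens. LOX3 had the greatest gain of these, from 2018 to 3884 bp. WRKY40 (chromosome 1, 30383599 to 30385840) was weak in WT, with its fold at percentile 21.3 of the list, and also carried H3K27me3, on 887 bp (WT) and 1208 bp (FAMA-LGK). Protoplasting is itself a wound and stress, and the same procedure was used for both genotypes. Its part in these counts was not tested.

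For the lists in between, the intervals include the share of 12.6% among genes with WT H3K4me3, which again is a description and no test. Light signalling had 5 of 23, with the blue light receptor PHOT2, the ubiquitin ligase COP1, its partner SPA3, and the transcription factor genes HYH and PIF5. PHOT2 (chromosome 5, 23522746 to 23526536) had 3791 bp (WT) and 3826 bp (FAMA-LGK). A second kept domain of 2618 bp lay over the far part of its annotated body, where AT5G58150 overlaps it. The clock list had 4 of 21, namely RVE1, RVE4, RVE8 and LNK1. Photosynthesis had 5 of 27, namely LHCA1, LHCA3, LHCB3, LHCB6 and GAPB. Guard cells hold chloroplasts too, and mesophyll cells left after sorting were not tested as a source. LHCB6 shared 1 domain with 3 other genes, which was 3661 bp long and lay in a FAMA-LGK peak of 5676 bp.

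Chromatin regulators had 3 of 15. They were EMF2, a Polycomb subunit, ELF6, an H3K27 demethylase, and PIE1, a remodeller that deposits H2A.Z. PIE1 had a domain of 2438 bp in a FAMA-LGK peak of 4705 bp, with the summit on its neighbour SDRB in both. Housekeeping genes had 3 of 19, namely GAPC1, GAPC2 and UBQ10, and aquaporins had 2 of 16, PIP1;2 and PIP2;3. On both aquaporin domains the summit lay on a neighbouring gene in both genotypes. The same held for the domains of ERF109, RVE4 and GAPB.

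Guard cell genes had 4 of 31 (12.9%, interval 3.63 to 29.8%) on kept domains. Among them were ABCG40, PHOT2 and STP1, a hexose transporter. STP1 (chromosome 1, 3777047 to 3780773) had 3727 bp (WT) and 3281 bp (FAMA-LGK). Broad WT peaks that were not kept held 14 genes of the list, among them the ion channel genes KAT1, KAT2, SLAC1 and ALMT12. Over all protein-coding genes, 254 of 27444 (0.926%) lay on such peaks. The division of the list rests on the coverage limit: with coverage of at least 50%, kept domains held 13 of its genes, and starting from the FAMA-LGK list they held 8. In WT, 29 of the 31 had H3K4me3.

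Stomatal lineage genes had 2 of 25, ICE1, a bHLH partner of FAMA, and MKK5, a MAP kinase kinase. The ICE1 domain (chromosome 3, 9832388 to 9835078) was 2691 bp long and lay in a FAMA-LGK peak of 4188 bp, and that of MKK5 had 2760 and 2620 bp. FAMA lay on a broad WT peak that was not kept. Abscisic acid signalling had 2 of 23, the phosphatase gene ABI1, with 2158 and 2208 bp, and the receptor gene PYL9, with 2736 and 2417 bp. Epidermis, vasculature and trichome genes had 1 of 15, ATML1, a regulator of epidermal identity, with 2292 and 2567 bp. No auxin response gene of 16 and no meristem, floral or embryo regulator of 22 lay on a kept domain, which allows shares of up to 20.6% and 15.4%. Of the latter list, 3 genes had any WT H3K4me3 peak.

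**Figure D5:**
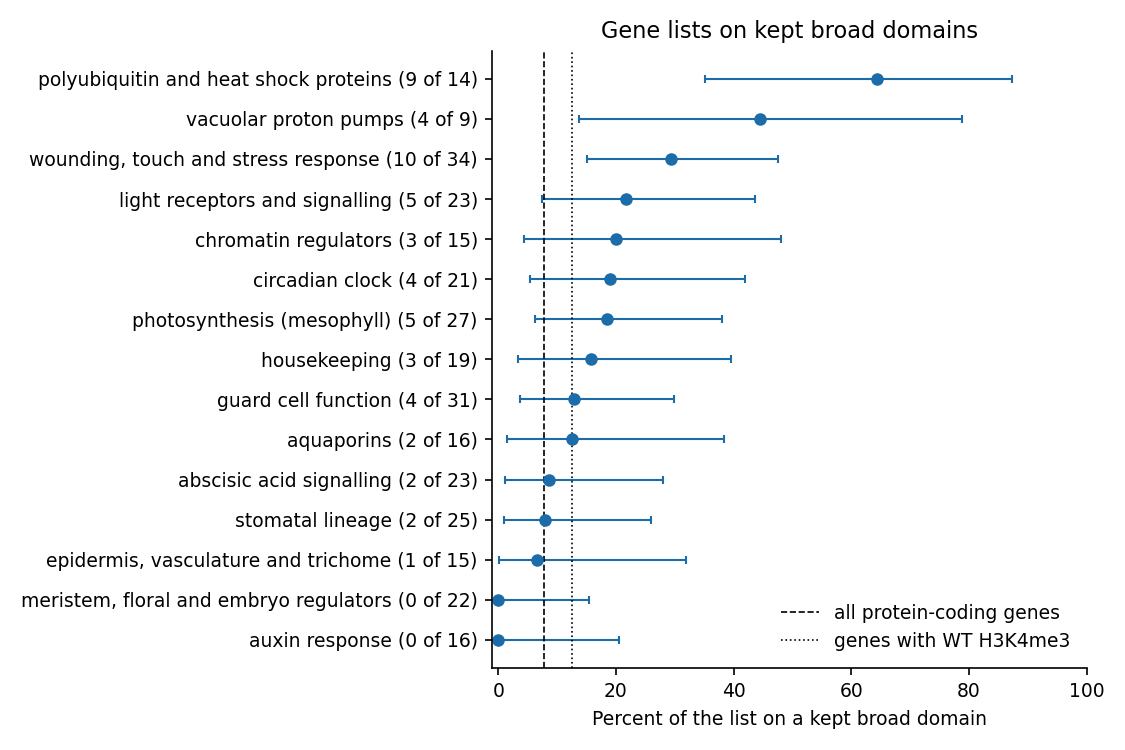
Percent of each gene list on a kept broad domain (x axis), with the exact 95% interval; numbers in brackets are genes on a domain of genes in the list. The lines mark 7.83% of all protein-coding genes and 12.6% of genes with WT H3K4me3. The intervals of polyubiquitin and heat shock proteins, vacuolar proton pumps, and wounding, touch and stress response lie wholly above both lines. This is a description and no test, because the lists were chosen with earlier results of these data known.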

How the data were processed

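The 4 deposited peak lists were used, each standing for 2 ChIP libraries and 2 inputs. Per the submitters' processing notes, the tools were CASAVA 1.8.2, Bowtie2 and MACS2, with the build TAIR10. The read depth, the peak threshold and the way replicates were combined are not given in the labels or lists. The authors' deposited score of each peak was not used. The authors' fold (a ratio of ChIP to control) and −log10 q-value were used only within a list, to describe, rank or filter peaks.

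Overlaps were computed with Python 3.11.15, pandas 2.3.3, numpy 2.4.6 and scipy 1.17.1, and figures with matplotlib 3.10.9. The overlap code was checked on simulated data. Gene names and bodies came from a RefSeq table of TAIR10.1 without strand. The share of WT H3K4me3 summits inside protein-coding genes was highest with no shift of the table on each of the 5 chromosomes (95.4 to 97.0%; shifts up to 3000 bp, step 100 bp). Printed coordinates are those of the peaks, counted from 1. A domain is named by the protein-coding gene it covers most.

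Named were the 10 widest domains, the 5 of highest WT −log10 q, the 5 largest gains and losses of length, the 10 with most H3K27me3 in both genotypes, the 3 next to each side of both limits, the 5 covering most genes, and members of the 15 lists. The members and lists were chosen with earlier results of these data known. The fixed windows, summit genes and shares by gene number were added after the data were seen. No sequences are printed. The values of 1 listed gene are not reported here.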

Additional observations from a re-analysis of the deposited data

How the results depend on the processing

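No paired analysis was possible because each list pools its libraries and gives no value per replicate, and for the same reason no replicate could be left out. A listed peak end is 1 value with unknown error, read depths are unknown, and the choice of limits decides how many domains there are. The settings listed in this paragraph were applied 1 at a time. With a width of at least 1500 bp, 3127 domains were kept (89.4% of the broad WT peaks), the median length change was 24 bp, 46.3% covered 2 or more genes and 35.5% did so at the centre, and 4628 genes lay on them. With at least 3000 bp there were 149 domains (78.8%), with 82.6% over 2 or more genes, 25.5% at the centre, 328 genes, and FAMA-LGK H3K27me3 on 6.71%. The median length change then turned to -57 bp. With coverage of at least 50%, it turned to -9 bp, 96.8% of the broad peaks were kept, 61.0% covered 2 or more genes and 41.1% did at the centre. With coverage of at least 95%, 64.1% were kept, the median change was 63 bp and 48.0% had 2 or more genes at the centre. The direction of the median length change therefore depends on the limits. A looser coverage limit admits shortened domains by construction, and for width the cause was not tested. Using only the stronger 50% of each list by −log10 q, 79.9% were kept, the median change was 28 bp, and H3K27me3 lay on 1.45% in either genotype. Starting from the FAMA-LGK list, there were 1296 domains (88.4% kept) and the median change was 63 bp, but the guard cell list had 8 genes on them, the vacuolar pump list 2 and the epidermis list 3. Joining peaks up to 200 bp apart left 1330 domains, and the other main values kept their size. When H3K27me3 had to cover 50% of a domain, the shares were 1.11% (WT) and 1.51% (FAMA-LGK). When a domain had to cover 50% of a gene, 19.6% held 2 or more genes and 1255 genes were counted. Windows of 500 and 2000 bp at the centre, added after seeing the data, gave 12.7% and 61.9%. Of the 135 recounts of gene lists under these settings, 87 stayed within 1.5 times the reported count. With domains of at least 3000 bp, the polyubiquitin and heat shock list had 2 genes, the wounding, touch and stress list 2 and the vacuolar pump list 0, and the guard cell list 4. With coverage of at least 50% the guard cell list had 13.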

Other observations

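Of the symbol families with at least 10 genes, chosen after their counts were seen, ERD (early responsive to dehydration) and UBQ (ubiquitin) had 6 of 13 genes each on kept domains, and HSP (heat shock protein) had 9 of 23. Over all protein-coding genes the share was 7.83%, and among those with WT H3K4me3 it was 12.6%. The ERD genes were ERD4, ERD5, ERD7, ERD9, ERD14 and ERD15. The UBQ genes were UBQ3, UBQ5, UBQ6, UBQ10, UBQ11 and UBQ14. Families overlap with the gene lists, so these counts are not independent of them.

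Long non-coding RNA genes of the table lay on 122 kept domains (9.71%), against 5.68% of the shorter peaks. Per Mb of region the numbers were close, with 43.3 and 43.9 such genes.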
